A study of Homo sapiens with 4 samples.

Results

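MT-ND6, written ND6 below, is 1 of the 37 genes of human mitochondrial DNA and the mRNA read here from the light-strand file. Its 525-nt coding region occupies positions 1897 to 2421 of that file, which numbers its own strand, and pairs with chrM:14148-14672 (minus strand) in the numbering of the heavy-strand file. The genome build is not given in the sources used here. Coordinates keep the numbering of the heavy-strand file, which is shifted from that of GRCh38.p14, where ND6 spans 14149 to 14673. Positions within ND6 are counted from the A of the start codon. The members are the positions of this region: 103 adenines and 37 cytosines, which carry the DMS signal, and 187 guanines and 198 thymines (uridines in the RNA), which serve as background. All 140 adenines and cytosines passed the filter on low and high values, and no library lists a 0 anywhere in the region. The gene identifier in the table used for names is 4541.

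The mitochondria came from HEK-293T, a cell line of human embryonic kidney, that was either wild type (n = 2 libraries) or knocked out for LRPPRC (n = 2 libraries). All 4 preparations were treated alike, with 1% dimethyl sulfate (DMS) for 5 min at 37 °C, and the labels call the libraries of a group biological replicates. Whether these came from separate cultures, and whether the knockout line is a single clone, is not said in the labels, so the p-values measure the spread between these libraries. An untreated library was not analysed here. The files give fractions without read counts, so the depth is unknown and no counting interval was computed. They hold mitochondrial transcripts alone, so the knockout of LRPPRC, a nuclear gene, could not be checked from them.

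DMS methylates adenine and cytosine where the base-pairing face is free, and the reverse transcriptase used here then misreads the methylated base, so a higher mismatch fraction at A or C marks a more accessible base. ND6 encodes a membrane subunit of respiratory complex I. It is the mRNA of the long transcript that starts at the light-strand promoter, which otherwise holds tRNAs and long noncoding stretches, whereas the other mitochondrial mRNAs come from the transcript of the opposite direction. The base bias of the 2 DNA strands makes ND6 rich in guanine and poor in cytosine. Its coding region ends in AGG, a codon with no amino acid assigned in human mitochondria, and its mRNA is known to lack the poly(A) tail that most other mitochondrial mRNAs carry. LRPPRC, together with SLIRP, binds mitochondrial mRNAs and is known for keeping them stable and polyadenylated, with the level of ND6 depending on it less than the levels of the heavy-strand mRNAs.

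The sequences below are the stretches of ND6 on which the results turn, copied from the base column of the light-strand file (5′ to 3′, with T for U). In the first, which opens the coding region, the capital marks the adenine with the largest rise in the knockout. In the second, capitals mark the 13 adenines and cytosines of the longest unbroken series called lower in the knockout. In the next pair, the 50-nt windows that hold the most such positions, capitals mark adenines and cytosines with a mean under 1.5% over the 4 libraries. In positions 111 to 140 capitals mark the adenines with more deletions than mismatches, and in the last sequence, the end of the coding region, the stop codon.
Coding positions 1 to 30, chrM:14643-14672: atgatgtAtgctttgtttctgttgagtgtg
Coding positions 384 to 434, chrM:14239-14289: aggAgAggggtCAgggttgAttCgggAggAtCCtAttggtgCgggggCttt
Coding positions 51 to 100, chrM:14573-14622: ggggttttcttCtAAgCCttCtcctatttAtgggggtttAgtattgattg
Coding positions 201 to 250, chrM:14423-14472: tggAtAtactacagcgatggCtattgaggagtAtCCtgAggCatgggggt
Coding positions 111 to 140, chrM:14533-14562: ggtcgggtgtgttAttAttctgaattttgg
Coding positions 466 to 525, chrM:14148-14207: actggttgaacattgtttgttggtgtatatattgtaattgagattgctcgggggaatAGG

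In wild-type mitochondria the mean mismatch fraction over the adenines and cytosines of ND6 was 3.09% and 3.12% in the 2 libraries, and in the knockout it was 2.92% in both. The groups did not overlap, and the means were 3.10% ± 0.0210 (SD, n = 2) and 2.92% ± 0.00110 (SD, n = 2). Adenines averaged 3.02% and 3.04% in the wild-type libraries, against 2.90% in each knockout library. Cytosines, 26.4% of the tested positions, averaged 3.28% and 3.33% in wild type, against 2.96% and 2.97% in the knockout. The knockout values were thus lower at both bases, with a knockout minus wild-type difference of -0.127 percentage points at adenine and -0.339 at cytosine. Each of these comparisons of single values per library reached p = 0.333 in the two-sided exact permutation test, the smallest p that 2 libraries against 2 allow.

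The guanines and thymines of the same region, where DMS leaves little signal, were also lower in the knockout. Guanines averaged 0.631% and 0.615% in wild type, against 0.435% and 0.453% in the knockout. Thymines averaged 0.918% and 0.912% in wild type, against 0.864% and 0.850% in the knockout. The ratio of the adenine and cytosine mean to the guanine and thymine mean was 4.01 ± 0.0681 (SD, n = 2) in wild type, against 4.45 ± 0.00459 (SD, n = 2) in the knockout, with no overlap and p = 0.333 in the exact permutation test. With the guanine and thymine mean of each library subtracted, an alternative chosen after seeing the data, the difference at adenine and cytosine was -0.0660 percentage points, in place of -0.183. The part of the lower background in the lower signal was not tested.

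**Figure D1:**
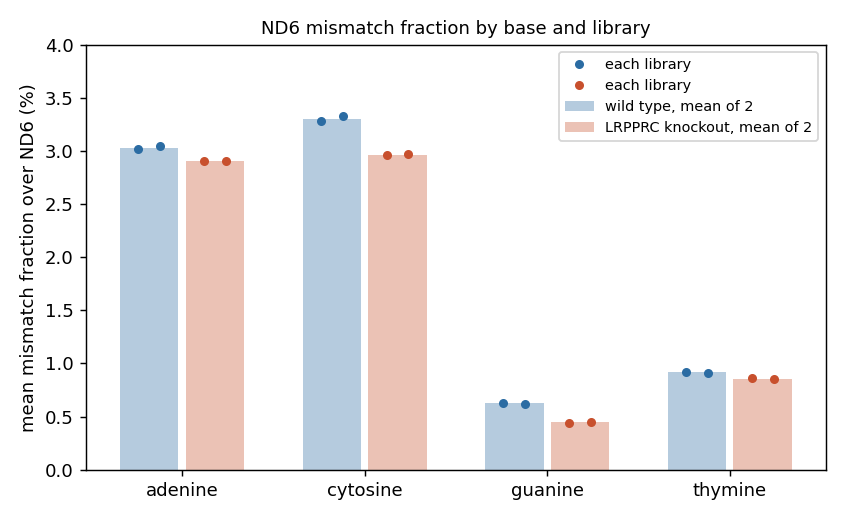
Mean mismatch fraction (%) over the ND6 coding region by base; bars are the means of 2 libraries and points the libraries. Cytosine has the widest gap between the wild-type (3.30%) and knockout (2.97%) means, and all 4 bases are lower in the knockout.

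Along the mRNA, single adenines and cytosines ranged from 0.499% to 6.63% (mean over the 4 libraries), with a median of 3.07%. Under 1% lay 8 positions, under 1.5% lay 22, and 6 exceeded 5%. The profile was steady between replicates: the median absolute log2 difference between libraries of a group was 0.04 for wild type and 0.02 for the knockout, and the median absolute change between the groups was 0.10. As a description over 140 positions that share libraries and sequence, Pearson's r of the log2 values was 0.996 between the wild-type libraries, 0.999 between the knockout libraries and 0.979 to 0.982 across groups. The order of accessible and protected bases was therefore largely shared by the genotypes.

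The adenine at coding position 151 was the highest wild-type position, at 6.43% and 6.63%, and stood at 6.20% and 6.19% in the knockout. The adenine at 180 read 5.55% and 6.96% in wild type, against 7.13% and 6.89% in the knockout, where it was the highest. Its wild-type replicates lie further apart than its group means, and the groups overlap. The cytosine at 514, in codon 172 of 175, read 5.81% and 5.80% in wild type, against 5.39% and 5.36% in the knockout. The cytosines at 395 and 251 completed the highest 5 in wild type, with means of 5.68% ± 0.0750 and 5.67% ± 0.177 (SD, n = 2 each). In the knockout the adenine at 329 (5.18% ± 0.0467) took the place of cytosine 395, which had 4.36% in each library. The adenine of the start codon was among the least reactive positions, at 0.854% and 0.726% in wild type, against 0.686% and 0.702% in the knockout, with no overlap but no call (adjusted p = 0.245). The adenine of the AGG stop codon lay above the median, at 4.18% and 4.16% in wild type, against 3.89% and 3.91% in the knockout, and was not called either (adjusted p = 0.0520).

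The low positions were gathered in places. The longest unbroken series under 1.5% was coding positions 62 to 71, chrM:14602-14611, with 4 cytosines and 2 adenines inside the sequence printed for positions 51 to 100. Its mean was 0.986% and 1.03% in the wild-type libraries, against 0.881% and 0.869% in the knockout. The guanines and thymines there averaged 0.430% in wild type, against 0.319% in the knockout, so the signal of these adenines and cytosines remained above that background. The ratio of the 2 means was 2.24 and 2.46 in wild type, against 2.76 and 2.72 in the knockout. Relative to that background the signal was thus higher in the knockout, without overlap. Of the 6 positions, limma over the light-strand file called 2 lower in the knockout and none higher, where it called 14.3% of all tested positions lower and 46.2% higher. Without wild-type replicate 2, knockout replicate 1 or knockout replicate 2 none of the 6 was called lower, and without wild-type replicate 1 there were 3. The adenine at 64, with 0.519% and 0.555% in wild type, against 0.486% and 0.437% in the knockout, was the least reactive of all 140.

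**Figure D2:**
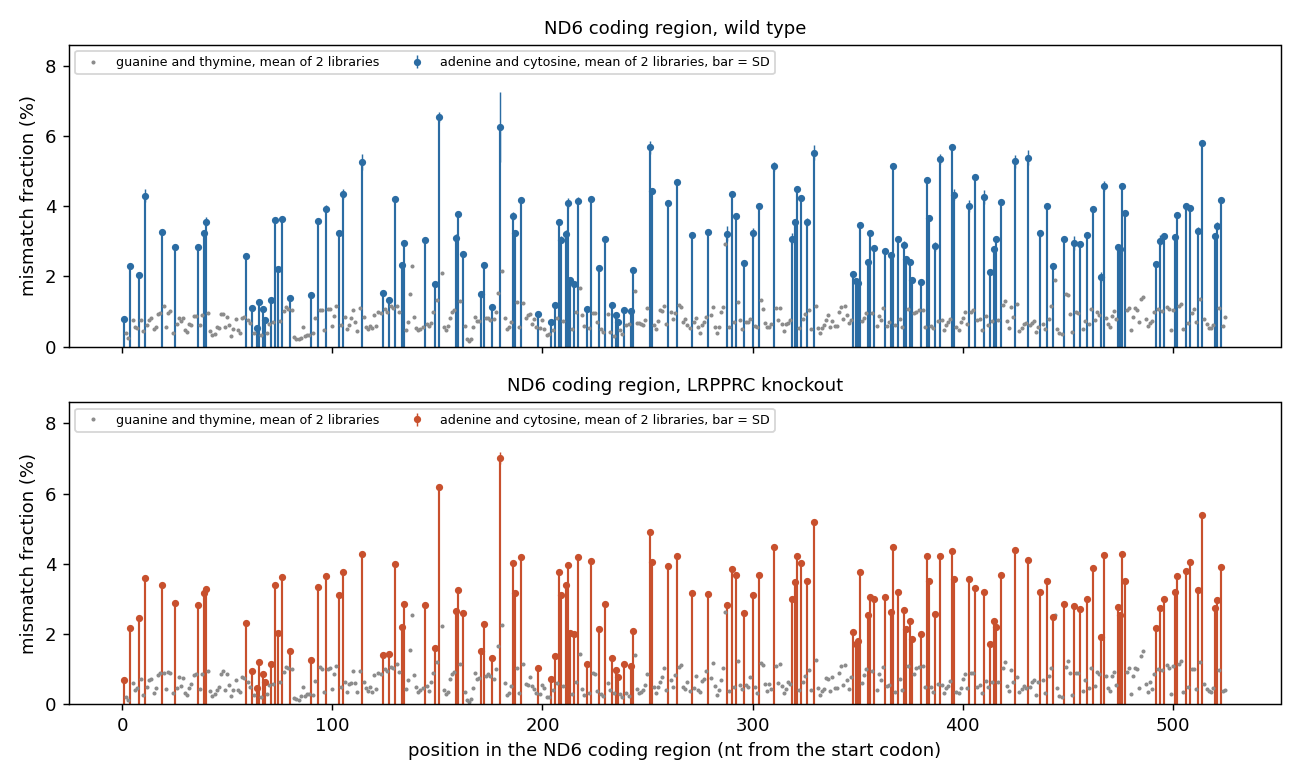
Mismatch fraction (%) along the ND6 coding region in wild type (top) and LRPPRC knockout (bottom), against the position in nt from the start codon; stems are adenines and cytosines (mean of 2 libraries, bar = SD), grey dots guanines and thymines. The tallest stems stand at 151 and 180 in both genotypes, and the stems near 62 to 71 stay below 1.5%.

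Across the whole coding region the change was small but larger than the spread between libraries. Values were analysed as log2(fraction + 0.001), which understates changes at low positions, and fitted with limma over all 37 genes with Benjamini-Hochberg adjustment. The mean log2 value of ND6 was -5.12 and -5.11 in wild type, against -5.18 in each knockout library. The change was -0.07 (SE 0.0059, adjusted p = 0.000475), in a table where 64.9% of the genes were called lower and 8.11% higher. The median over the tested positions of the whole light-strand file moved the other way, by 0.54 on the log2 scale, so after centring on that median the change of ND6 was -0.61 (SE 0.022, adjusted p = 0.000175), with 24.3% of genes called lower and 59.5% higher. The direction was the same on both scales, and changes below are without centring unless stated.

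Without centring, the heavy-strand mRNAs fell further than ND6, an order that turned when each file was centred on its own median. Their changes ran from -0.90 (ND4) to -0.38 (COX1), with a median of -0.49 over 12 genes. In wild type ND6 had the lowest mean fraction of the 13 mRNAs, 3.10% against 3.22% to 3.85%. In the knockout it had the highest, 2.92% against 1.94% to 2.52%. Taken as the difference from the mean of the 12 heavy-strand mRNAs in the same library, on the log2 scale, ND6 stood at -0.14 and -0.12 in wild type and at 0.33 in each knockout library. That difference rose by 0.46 (SE 0.010, limma adjusted p = 8.94e-06), where 67.6% of all genes were called higher and 8.11% lower on this relative scale. Among the heavy-strand mRNAs themselves the same relative change ran from -0.37 to 0.15. The scale sets the heavy- and light-strand files side by side as deposited, and a change of signal across either file enters it. After centring each file on its own median, the 12 heavy-strand mRNAs ran from -0.27 to 0.25 with a median of 0.14, and ND6, at -0.61, lay below all of them.

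Base content does not match between these mRNAs, since cytosine makes up 26.4% of the tested positions in ND6 and 46.9% to 55.9% in the others. Compared base by base without centring, ND6 still rose relative to the heavy-strand mRNAs, by 0.33 at adenine (SE 0.0088, adjusted p = 4.64e-05) and by 0.54 at cytosine (SE 0.015, adjusted p = 7.86e-05). At adenine the changes of the heavy-strand mRNAs ran from -0.71 to -0.24 and that of ND6 was -0.05. At cytosine they ran from -1.06 to -0.48, and that of ND6 was -0.12.

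**Figure D3:**
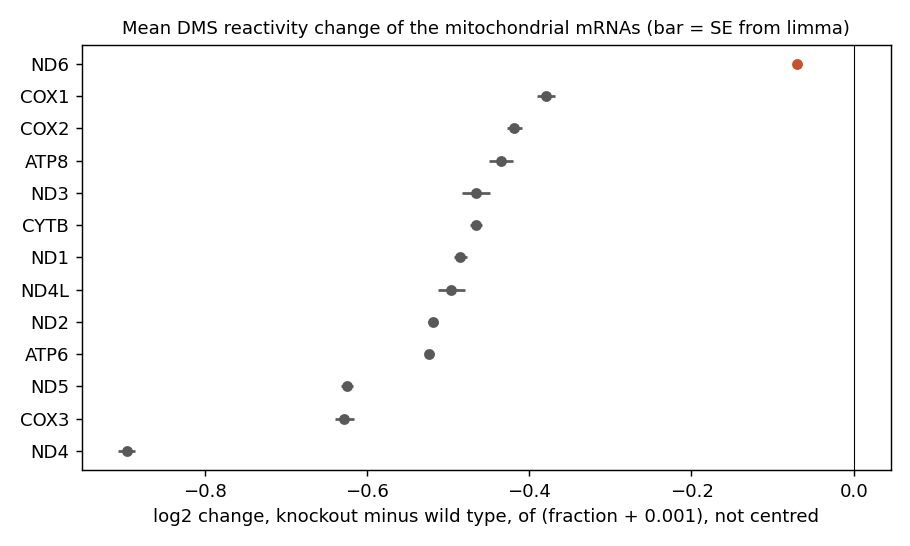
Log2 change (knockout minus wild type, not centred) of the mean reactivity of each of the 13 mitochondrial mRNAs; points are limma estimates from 2 libraries a group and bars the SE. ND6, at -0.07, lies above the 12 heavy-strand mRNAs, which run from -0.90 to -0.38; centred on the file medians it lies below them.

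The 7 mRNAs for subunits of complex I (ND1, ND2, ND3, ND4, ND4L, ND5 and ND6) were all called lower without centring, against the 64.9% of all genes. So were all the mRNAs outside complex I (COX1, COX2, COX3, ATP6, ATP8 and CYTB), so the call is not particular to complex I. The complex I count also depends on the scale. After centring on the file medians 4 of the 7 were called higher and 2 lower, with ND5 not called and ND6 among the lower. The 3 genes whose change was nearest to that of ND6, by distance in log2 change over the 37 genes, were tRNAs: TRNI (isoleucine), TRNN (asparagine) and TRNT (threonine). TRNN, also on the light strand, changed by -0.14 (SE 0.046, adjusted p = 0.0440). TRNI (-0.03, SE 0.12, adjusted p = 0.812) and TRNT (-0.14, SE 0.19, adjusted p = 0.508) were not called, and their errors are wide enough to hold much larger changes.

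The signal was spread a little more evenly over ND6 in the knockout. The Gini index, which is 0 when all positions are equal and nears 1 when a few hold all the signal, was 0.234 and 0.239 in wild type, against 0.220 and 0.222 in the knockout. The change of -0.0155 (SE 0.0032) had an adjusted p of 0.0426 in limma over all genes, of which 37.8% were called lower and 8.11% higher. The call was lost when any of the 4 libraries was left out (adjusted p 0.0687 to 0.280) and with adenines alone (adjusted p = 0.161). The changes of the 12 heavy-strand mRNAs ran from -0.0573 to -0.0129. ND6 had the lowest mean wild-type index of the 13 mRNAs, at 0.236, but that of ATP6 (0.238) lay between the 2 ND6 libraries. In the knockout ATP6 had the lowest, at 0.193.

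Position by position, limma over the 5544 tested light-strand positions called 36 ND6 positions lower and 7 higher, which is 25.7% and 5.00% of its 140. Over the whole file 14.3% were called lower and 46.2% higher, so the ND6 split runs opposite to that of its file. The median change was -0.07 in ND6 and 0.22 over the file. Adenines gave 19 lower and 5 higher of 103, and cytosines 17 lower and 2 higher of 37. No position changed by 1 log2 unit, and a single position passed 0.5. At 113 positions (80.7%, beside 82.3% in the file) the groups had no overlap, 85 with lower and 28 with higher values in the knockout. The counts depended most on the knockout libraries: with either of them left out, far fewer positions were called in both directions. With either wild-type library left out, more were called lower. The knockout replicates lay closer together, with a median absolute log2 difference of 0.02 against 0.04 in wild type. The part of this unequal spread in the counts was not tested.

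Centring on the file median changes these counts, because that median was higher in the knockout, by 0.54 on the log2 scale. The file did not move as one: the median change of its single positions was 0.22, and 14.3% of them were called lower. After centring, 139 ND6 positions were called lower and none higher, against 50.7% and 24.6% of the file. The pattern along the mRNA was therefore also tested relative to the ND6 median of each library. On that scale 23 positions were called lower and 15 higher, against 9.83% and 49.7% of the file. Without knockout replicate 1, or without knockout replicate 2, 6 were called lower and 1 higher, and with a single wild-type library left out 16 to 19 lower and 14 to 15 higher. With all 4 libraries, the 23 were all among the 36 called lower before, and all 7 positions called higher before were called again. The ND6 median itself moved by -0.06, so this scale shifts every change upward by the same amount. That overlap therefore follows largely from the shift and is no second test.

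The 5 largest falls all lay between coding positions 395 and 431. The cytosine at 406 read 4.81% and 4.87% in wild type, against 3.36% and 3.28% in the knockout. Its change of -0.53 (SE 0.033, limma adjusted p = 0.000312) was the one past 0.5. The cytosine at 416 went from 3.07% to 2.21% (-0.46), and the adenine at 410 from 4.26% to 3.21% (-0.40). The cytosines at 431 and 395 went from 5.38% to 4.10% (-0.38) and from 5.68% to 4.36% (-0.37). At all 5 the groups did not overlap, as at 80.7% of the ND6 positions. Each was also called lower relative to the ND6 median (adjusted p 0.000408 to 0.00502). The 5 were chosen as the largest called falls, so neither is a second test.

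These falls belong to the longest unbroken series of called positions, the 13 neighbouring adenines and cytosines from 387 to 431, chrM:14242-14286, shown in capitals in the second sequence. The 7 adenines and 6 cytosines averaged 4.14% and 4.18% in the wild-type libraries, against 3.33% in each knockout library. Their changes ran from -0.53 to -0.15, and 10 of the 13 were lower relative to the ND6 median too. Guanines and thymines of the same 45 nt averaged 0.784% and 0.746% in wild type, against 0.590% and 0.601% in the knockout. The ratio of the adenine and cytosine mean to the guanine and thymine mean was 5.28 and 5.61 in wild type, against 5.64 and 5.55 in the knockout, so the groups overlapped on that measure. Signal and background were lower together over this stretch. Without wild-type replicate 1 all 13 were still called lower, without wild-type replicate 2 there were 12, and with either knockout library left out 9.

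The rises were smaller and scattered. The adenine at 8, the second base of codon 3, read 2.00% and 2.09% in wild type, against 2.47% in each knockout library, a change of 0.26 (SE 0.043, limma adjusted p = 0.00703). The adenine at 176 went from 1.12% to 1.32% (0.21, adjusted p = 0.0318), that at 206 from 1.18% to 1.37% (0.20, adjusted p = 0.0432), that at 363 from 2.73% to 3.06% (0.16, adjusted p = 0.0159) and the cytosine at 215 from 1.79% to 2.01% (0.16, adjusted p = 0.0377). All 5 had no overlap between groups, as had 80.7% of the ND6 positions, and they were chosen among the called ones. Relative to the ND6 median, a scale that shifts every change upward, the 5 were called higher too. After centring on the file median all 5 were called lower instead. No 2 neighbouring tested positions were both called higher.

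**Figure D4:**
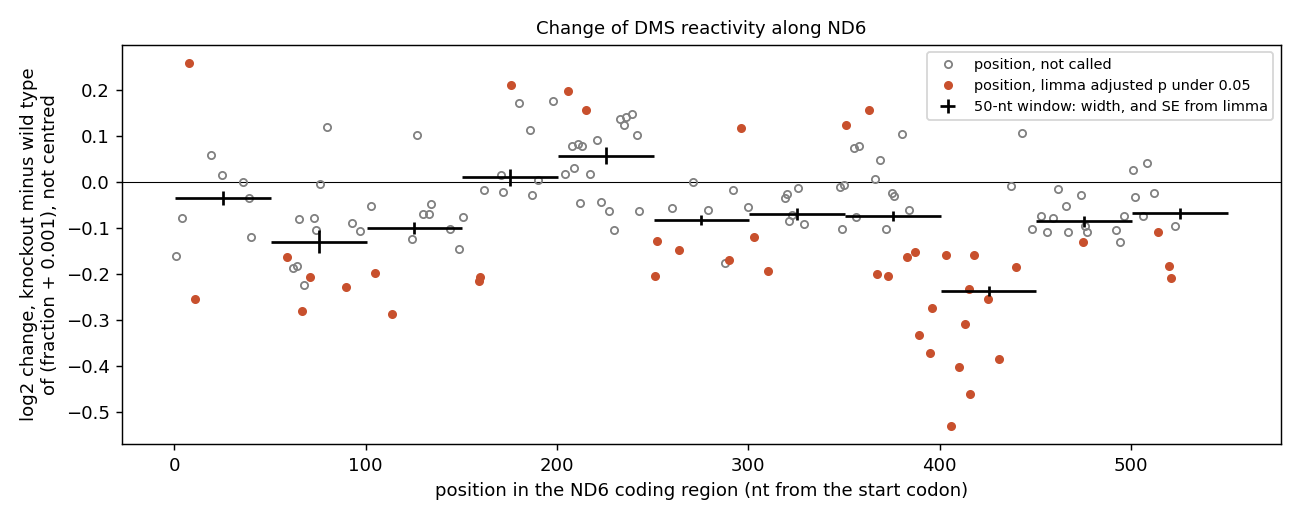
Log2 change (knockout minus wild type of fraction + 0.001, not centred) along the ND6 coding region; filled points are adenines and cytosines called by limma, open points those not called, and black bars 50-nt windows with their SE. The window from 401 to 450, at -0.24, is the lowest, and that from 201 to 250, at 0.06, is the highest.

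In 50-nt windows counted from the start codon, 8 of the 11 windows that begin in ND6 were called lower and 1 higher, where 24.8% of 307 light-strand windows were called lower and 56.7% higher. The window from 401 to 450 fell most (-0.24, SE 0.011, limma adjusted p = 1.34e-05). Its mean went from 3.71% and 3.75% in wild type to 3.12% and 3.13% in the knockout. Of its 13 tested positions 10 were called lower, against 25.7% of ND6 and 14.3% of the file. Apart from the position at 440, these belong to the series from 387 to 431, so the window largely repeats that result. The window from 51 to 100, with the low series described above, averaged 2.00% and 2.06% in wild type, against 1.88% and 1.89% in the knockout (-0.13, SE 0.025, adjusted p = 0.00495). The window from 201 to 250 was the one called higher, with 2.17% in each wild-type library and 2.22% in each knockout library (0.06, SE 0.018, adjusted p = 0.0298). That rise, of 0.0508 percentage points, came with guanines and thymines that averaged 0.701% in wild type, against 0.488% in the knockout, and of its 19 tested positions 2 were called higher and none lower. The call was lost without knockout replicate 1 (adjusted p = 0.228) or replicate 2 (adjusted p = 0.189), and after centring on the file median the window was called lower (-0.48).

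The windows from 1 to 50 (-0.03, SE 0.015, adjusted p = 0.0849) and from 151 to 200 (0.01, SE 0.018, adjusted p = 0.599) were not called. The 6 other windows, from 101 to 150, from 251 to 400 and from 451 on, were called lower, with changes of -0.10 to -0.07. Wild-type levels of the 11 windows ran from 2.03% to 3.84%, with the windows from 51 to 100 and from 201 to 250 the lowest in both genotypes.

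Sequence context went with the level of reactivity. ND6 holds 19 runs of 3 or more guanines, the longest of 5. The 6 cytosines directly beside such a run averaged 4.87% and 5.01% in wild type, against 4.07% and 4.05% in the knockout, and the other 31 averaged 2.97% and 3.00% in wild type, against 2.74% and 2.76% in the knockout. The 8 adenines beside a run averaged 4.27% and 4.37% in wild type, against 3.95% and 3.97% in the knockout. The other 95 adenines averaged 2.91% and 2.93% in wild type, against 2.82% and 2.81% in the knockout. Bases beside a guanine run were thus higher in all 4 libraries. Of these 6 cytosines 5 were called lower in the knockout, as were 5 of the 8 adenines, and none was called higher. Away from the runs, 12 of 31 cytosines and 14 of 95 adenines were called lower, and 2 and 5 higher. In the whole light-strand file 14.3% of the tested positions were called lower and 46.2% higher. The series from 387 to 431 is dense in such runs, as the second sequence shows, so these counts and that series rest partly on the same positions.

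Adenines followed by guanine averaged 3.34% in wild type, against 3.17% in the knockout (34 positions), and those followed by adenine 2.73% and 2.63% (18 positions). By place in the codon, adenines at positions 1, 2 and 3 averaged 3.13%, 2.86% and 3.07% in wild type, against 3.00%, 2.71% and 2.96% in the knockout. After subtraction of the ND6 median of its own base from each value, the mean log2 value at codon position 3 exceeded that at positions 1 and 2 by 0.11 and 0.12 in wild type, against 0.15 in each knockout library (exact permutation p = 0.333). On the same scale the first 50 nt minus the remainder came to -0.12 and -0.11 in the wild-type libraries, then -0.08 and -0.06 for the knockout. With adenines alone the codon contrast overlapped between the groups, at 0.07 and 0.09 in wild type, then 0.07 and 0.08 in the knockout.

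The reactivity was set beside structures predicted from sequence alone with ViennaRNA, in which no reactivity enters. The minimum free energy fold of the coding sequence (-117 kcal/mol) paired 344 of the 525 bases. It placed 35 of the 37 cytosines in pairs, so it hardly divides them, and 69 of 103 adenines. Adenines and cytosines unpaired in that fold averaged 2.98% and 2.96% in wild type, against 2.81% in each knockout library, below those paired, which averaged 3.12% and 3.17% and then 2.96% in each knockout library. The fold therefore did not separate reactive from protected bases in the direction that DMS chemistry gives, in any of the 4 libraries.

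Local pairing probabilities, from windows of 240 nt with pairs spanning up to 160 nt and with the flanking sequence included, ordered the bases in the usual direction, weakly. The 9 positions with an unpaired probability over 0.8 averaged 3.55% and 3.49% in wild type, against 3.26% in each knockout library. The 54 positions under 0.2 averaged 2.94% and 3.00% in wild type and 2.77% in each knockout library. Spearman's rho between reactivity and unpaired probability was 0.15 to 0.16 over the 103 adenines and 0.11 to 0.14 over the 37 cytosines in the 4 libraries. These are descriptions over neighbouring positions of shared libraries and are too weak to be called a relation.

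Folds guided by the reactivity of each library shared most of their pairs. The knockout libraries gave an identical fold of 166 pairs, and the wild-type libraries gave 163 and 172 pairs, of which they shared 146. The first wild-type fold shared 162 pairs with the knockout folds, more than with its own replicate, and the second shared 145. The wild-type replicates therefore differed from each other about as much as the second of them differed from the knockout. In all 4 folds 145 pairs were present. Of the 172 pairs predicted from sequence alone, the guided folds kept 90 to 97.

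The 3 hairpins with the most base pairs present in all 4 guided folds are printed with their paired bases in capitals. The reactivity chose the pairs, so the levels within them are descriptions.
Hairpin of coding positions 175 to 206, chrM:14467-14498: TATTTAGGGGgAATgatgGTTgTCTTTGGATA
Hairpin of coding positions 479 to 523, chrM:14150-14194: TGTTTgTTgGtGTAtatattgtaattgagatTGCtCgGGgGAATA
Hairpin of coding positions 450 to 474, chrM:14199-14223: TTGATTAGTAgtagtTACTGGTTGA
The first has 13 pairs, all of which are also in the fold from sequence alone, and 6 of them join G with T. Its 7 paired adenines and cytosines averaged 2.45% in wild type, against 2.67% in the knockout, and ranged from 0.714% to 6.25% in wild type. The upper end is the adenine at 180, so a base drawn as paired was among the most reactive of the mRNA. The second, which holds the adenine of the stop codon, has 11 pairs, and the third has 10, and neither is in the fold from sequence alone. Their paired adenines and cytosines averaged 3.70% and 3.07% in wild type, against 3.40% and 2.91% in the knockout. The third thus lay near the mean of the whole coding region (3.10% in wild type, 2.92% in the knockout), and the second above it. In the second the 6 unpaired adenines and cytosines averaged 3.50% in wild type, below the paired ones, and 3.41% in the knockout.

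Upstream and downstream of ND6 the light-strand signal continued. TRNE, the glutamate tRNA gene that lies directly before ND6, covers the 50 nt ahead of the start codon. These averaged 2.03% and 2.05% in wild type, against 1.93% in each knockout library (-0.15, SE 0.019, limma adjusted p = 0.000904). Downstream the transcript runs antisense to ND5, and 9 of the next 10 windows were called lower in the knockout and none higher. Of all 307 light-strand windows 24.8% were called lower and 56.7% higher. How the level of ND6 compared with what follows depended on the stretch taken. Against the next 200 nt the difference in mean log2 value (ND6 minus flank) was 0.0035 and -0.0042 in wild type, with 0.10 in each knockout library. Against the next 100 nt it was -0.06 and -0.07 in wild type, then 0.0098 and 0.0068 in the knockout. Against the next 500 nt it was 0.10 in each wild-type library and 0.16 in each knockout library. The knockout libraries thus had the higher difference with all 3 stretches, without overlap (exact permutation p = 0.333 each), while the sign in wild type changed with the stretch. Over the 10 downstream windows the guanine and thymine background ran from 0.709% to 1.19% in wild type and from 0.441% to 0.814% in the knockout.

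**Figure D5:**
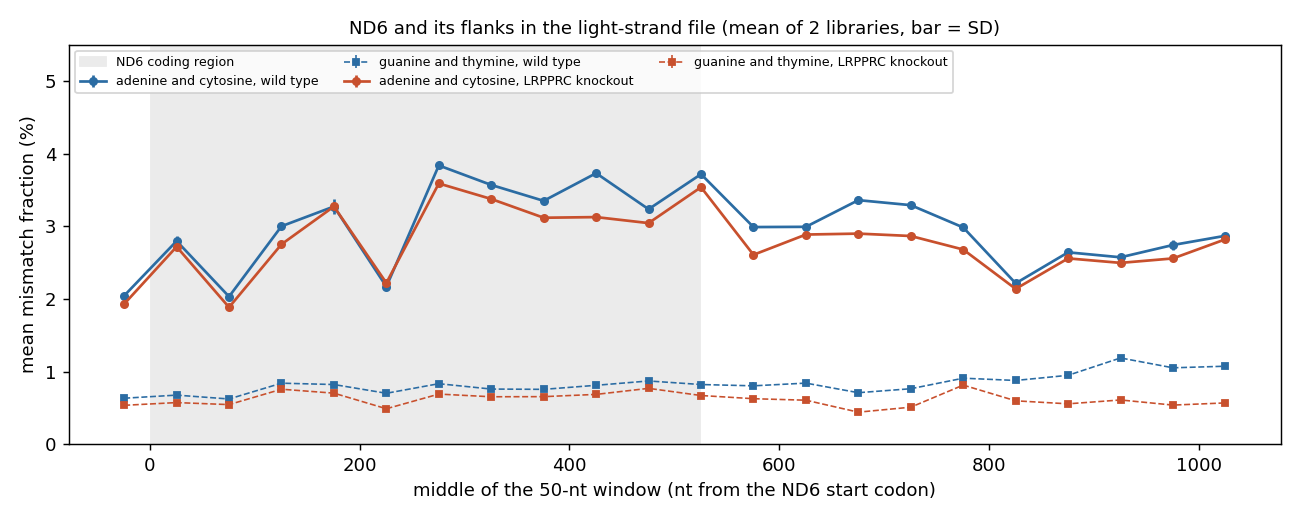
Mean mismatch fraction (%) in 50-nt windows against the window's middle (nt from the ND6 start codon), for adenines and cytosines (circles, solid) and guanines and thymines (squares, dashed), mean of 2 libraries with SD bars; the shaded span is the ND6 coding region. The adenine and cytosine lines of the genotypes meet at the windows from 151 to 250 and part most, within ND6, at the window from 401 to 450.

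The heavy-strand file covers the complement of ND6, where the gene table has no gene on that strand, and it looked different in the knockout. At heavy-strand cytosines opposite the guanines of ND6 the mean was 4.72% and 4.67% in wild type, against 1.79% and 1.76% in the knockout. At heavy-strand adenines opposite its thymines it was 3.01% and 3.03% in wild type, against 1.65% and 1.62% in the knockout. The bases that DMS hardly marks lay the other way: heavy-strand guanines opposite the cytosines of ND6 averaged 0.651% and 0.623% in wild type, against 1.45% and 1.54% in the knockout. Heavy-strand thymines opposite its adenines averaged 1.25% and 1.22% in wild type, against 1.59% and 1.64% in the knockout. Signal and background were thus close together on that side of the duplex in the knockout, at 1.45% to 1.79%, with no overlap between groups at any base (exact permutation p = 0.333).

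The heavy-strand guanines and thymines followed the ND6 profile itself in the knockout. The least-squares slope of their fractions on those of the paired ND6 adenines and cytosines was 5.86% and 5.58% in wild type, against 39.5% and 42.1% in the knockout. Pearson's r over the 140 positions was 0.174 and 0.164 in wild type, against 0.675 and 0.693 in the knockout, given as a description. In the reverse direction no such likeness was seen: the slope of the ND6 guanines and thymines on the paired heavy-strand bases was -3.84% and -4.22% in wild type, against -4.82% and -4.19% in the knockout. By base it was 4.48% and 3.55% for the ND6 guanines in wild type, against -1.25% and -0.978% in the knockout. For the thymines it was -0.749% and -1.75% in wild type, against -3.57% and -2.54% in the knockout. The slopes of the ND6 bases on the opposite strand ran from -4.82% to 4.48% over the libraries. The source of the likeness in the heavy-strand file was not tested.

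Deletions, the other trace that a methylated base can leave, were rare in ND6 and also lower in the knockout. Over adenines and cytosines they averaged 0.274% and 0.277% in wild type, against 0.243% and 0.244% in the knockout, and over guanines and thymines 0.0322% and 0.0303%, then 0.0245% and 0.0240%. At the adenines of 124 and 127, within the repeated ATT of the sequence printed for positions 111 to 140, deletions exceeded mismatches in all 4 libraries. The adenine at 127 had deletions of 2.98% and 3.00% in wild type, against 2.72% and 2.78% in the knockout, beside mismatches of 1.33% in each wild-type library and 1.46% and 1.40% in the knockout. The adenine at 124 had deletions of 2.03% and 2.10% in wild type, against 1.76% in each knockout library, beside mismatches of 1.58% and 1.49%, then 1.43% and 1.37%. Mismatches alone leave out the deletions at this pair, whose source was not tested, since an untreated library was not analysed. Over the whole region, counting deletions as well left the change at -0.08 (limma adjusted p = 0.000222).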

How the data were processed

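DMS mismatch fractions were analysed for 4 libraries, 2 wild type and 2 LRPPRC knockout, each with a file per strand. The authors deposited fractions: by the headers, every position has a share of mismatches and a share of mismatches plus deletions. The design text says that the mitochondrial genome was the alignment target. The submitters' processing notes name cutadapt and Bowtie2. Their versions, the build, the filters on reads and a minimum coverage are not given in the sources used here. Taking the fraction as mismatched reads over covering reads is a reading of the headers.

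Adenines and cytosines with a mean over the 4 libraries of 0.2% to 30% were tested. Fits ran over positions, over windows of 50 nt (8 or more tested positions) and over genes (10 or more) on log2(fraction + 0.001), without centring, with limma 3.58.1 in R 4.3.3 (lmFit, eBayes with trend; no trend for the Gini index). P-values were adjusted over all 5544 light-strand positions, all windows or all 37 genes, with a threshold of 0.05. The fit over positions was also run on simulated data, with independent noise of the same spread in both groups and few positions changed. Those settings differ from these data, so that run does not show how well the fits do here. Single values used a two-sided exact permutation test. Folds used ViennaRNA 2.7.2; guided folds took a slope of 1.8 and an intercept of -0.6, with reactivity scaled to the median of the highest 5% and a ceiling of 1.5. Gene names and places came from a table of GRCh38.p14, with the places shifted to the numbering of the heavy-strand file. Complementary bases matched the light-strand file to that numbering.

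Named positions are the 5 largest rises and 5 largest falls among those called, the 5 highest in each genotype, the start and stop codons, and the windows with the largest rise and fall. Further positions and the guanine runs were named after their values were seen. The members, lists and tests were chosen with earlier results of these data known. Alternatives were other pseudocounts, limits, scalings, bases, window sizes and flanks, deletions included, a replicate block, and each library left out. The labels do not say whether same-numbered libraries belong together. Their deviations from the group means correlated at -0.0764 over ND6 and at 0.0449 over the light-strand file. With 2 libraries a group this cannot settle the question.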

Additional observations from a re-analysis of the deposited data

How the results depend on the processing

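The ND6 change kept its direction and its call in all 16 alternatives run (-0.61 to -0.05), and the rise relative to the heavy-strand mRNAs in all 13 run for it (0.33 to 0.54), none of which rescaled the files; centring each file puts ND6 (-0.61) below those mRNAs (-0.27 to 0.25). The 5 largest falls were lower and called in all 15 alternatives run for each. Other results moved with the scaling. Centred on the file median, 139 positions were called lower and 0 higher; with quantile normalization 134 and 0; centred on the highest 5%, 63 and 1. No window was called higher in any of the 3, and complex I gave 4 higher and 2 lower, 4 and 3, and 4 and 2. Centred on the file median and with quantile normalization, respectively, the rises turned to -0.28 and -0.18 at position 8, -0.33 and -0.32 at 176, -0.34 and -0.34 at 206, -0.38 and -0.13 at 363, -0.39 and -0.35 at 215, and -0.48 and -0.33 in the window from 201 to 250.

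With adenines alone 20 positions were called lower, 8 were lower relative to ND6, 5 windows were lower and 0 higher, and the Gini change was -0.00889 (adjusted p = 0.161). With cytosines alone 17 were lower and 2 higher, and relative to ND6 1 was higher; no window then had 8 tested positions, so windows were not run. Windows of 25 nt gave 2 higher. Some differences between genotypes turned: the first 100 nt minus the rest (-0.038), codon position 3 with adenines alone (-0.0043), unpaired minus paired by probability (-0.0580 percentage points), with adenines alone (-0.00971) and with cytosines alone (-0.288), and the slope on the opposite strand with deletions (0.911 percentage points).

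The replicate block left 31 positions lower and 2 higher, 7 higher and 13 lower relative to ND6, 8 windows lower and 0 higher, and a Gini change of -0.0155 with adjusted p = 0.0586; the ND6 change stayed -0.07 (adjusted p = 1.30e-07). Since the labels give no pairing, this is a description. Leaving out each library, with the lone library assumed to vary like the others, gave 0 to 8 positions higher and 11 to 43 lower, 1 to 15 higher and 6 to 19 lower relative to ND6, 0 to 1 windows higher and 7 to 9 lower, a Gini change of -0.0179 to -0.0131 and unpaired minus paired of -0.00235 to 0.0639. The cause of these moves was not tested. Depth is unknown, so the precision at any 1 position rests on 2 libraries a group.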
